A study of Mus musculus with 4 samples.

Results

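Pou2f3, Irx4, Klf4, Grhl3, Ovol1, Gata3, Trp63 and Zfp750 encode transcription factors of the epidermis, and their transcripts were followed through 4 RNA-seq libraries of mouse keratinocytes. The 8 genes were taken by symbol from the 13102 genes of the deposited tables. All 8 were present in every table, and all 8 had a mean of at least 1 CPM (counts scaled to library size), as did 12934 of the 13102 genes. Each library came from primary epidermal keratinocytes of neonatal C57BL/6 mice, cultured for 48 h. The Il17rc KO, Il17rd KO and wild-type (WT) libraries came from cells given interleukin-17A (IL-17A), a cytokine of inflamed skin, at 100 ng/mL for 8 h, and the untreated WT library came from cells without it. Il17rc and Il17rd encode receptor chains of the IL-17 family. With 1 library in each group, differences could not be checked against replicates and none was given a p-value, and untreated knockout cells were not analysed here. The labels give neither the number of mice or dishes behind a library nor the deleted part of each gene.

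Epidermal cells divide in the basal layer and then move outward through the spinous and granular layers to the cornified layer. p63, the product of Trp63, sets up and maintains the basal layer and also prepares cells to leave it. Further factors act above it: Ovol1 and Gata3 as cells stop dividing and commit, and Klf4, Grhl3 and Zfp750 in the upper layers, where they switch on barrier genes. Pou2f3 and Irx4 are homeobox factors. Pou2f3 is made by cells that have left the basal layer and is also the factor that specifies chemosensory tuft cells of other epithelia, and Irx4 belongs to the Iroquois family and is best known from heart muscle.

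Total counts ranged from 19711866 to 19904695 per library. Il17rd had 5 counts in the IL-17A Il17rd KO library, against 265 in IL-17A WT and 252 in untreated WT. Il17rc had 439 counts in the IL-17A Il17rc KO library, against 1152 in IL-17A WT and 2729 in untreated WT, so reads of this gene were present in its knockout library. Sex-linked genes were unequal too. The Y-linked Ddx3y had 749, 2, 233 and 654 counts in IL-17A Il17rc KO, IL-17A Il17rd KO, IL-17A WT and untreated WT. The X-linked Xist had 2668, 8513, 4750 and 2420 counts in the same libraries. The part of sex in the results below was not tested. The 10 keratinocyte markers (Krt5, Krt14 and others) were all counted and summed to 39189, 43026, 38616 and 51559 CPM in the same order of libraries. Single markers differed in both directions. Epcam had 13348 counts in IL-17A WT against 1812 in untreated WT, and Itgb4 46248 against 24533. Krt15 had 51 counts in IL-17A WT against 497 in untreated WT, and Dsp 84390 against 160544. In such bulk samples, fewer cells of a type and less RNA per cell cannot be told apart.

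In WT cells given IL-17A, 6 of 8 factors were called lower against untreated WT and 0 were called higher. Pou2f3 was lowest, at 1.30% of its untreated level, followed by Irx4 at 5.40%, Ovol1 at 33.3%, Zfp750 at 38.7%, Gata3 at 49.0% and Klf4 at 49.1%. Grhl3, at 61.8%, and Trp63, at 88.5%, were below untreated WT by less than the size called. A gene was called where the log2 ratio of its scaled counts, with a prior count of 2, was at least 1 in size (2-fold) and 1 lay outside the exact 95% interval that counting error puts on the ratio. By that rule 10.5% of all 12934 genes were lower and 8.69% higher in this comparison. The interval covers counting error only, and a call describes 2 libraries, not the conditions. At these depths that error is small: with no minimum size 36.4% of all genes were lower, as were 8 of 8 members, and 36.3% were higher.

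With IL-17A, both knockout libraries held more of most of these transcripts than WT cells did. In IL-17A Il17rc KO 4 of 8 genes were called higher than in IL-17A WT, a comparison in which 6.02% of all genes were higher and 4.68% lower. For IL-17A Il17rd KO the count called higher was also 4 of 8, where 6.04% of all genes were higher and 3.60% lower. In both cases they were Pou2f3, Irx4, Ovol1 and Zfp750, and no member was called lower. The IL-17A WT library is shared by these comparisons and by the one with untreated WT, so these values are not independent of each other. The median log2 ratio of the 8 genes was -1.20 in IL-17A WT against untreated WT, 1.04 in IL-17A Il17rc KO against IL-17A WT and 0.85 in IL-17A Il17rd KO against IL-17A WT. The medians of all genes were 0.00, 0.04 and 0.01 in the same comparisons.

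**Figure D1:**
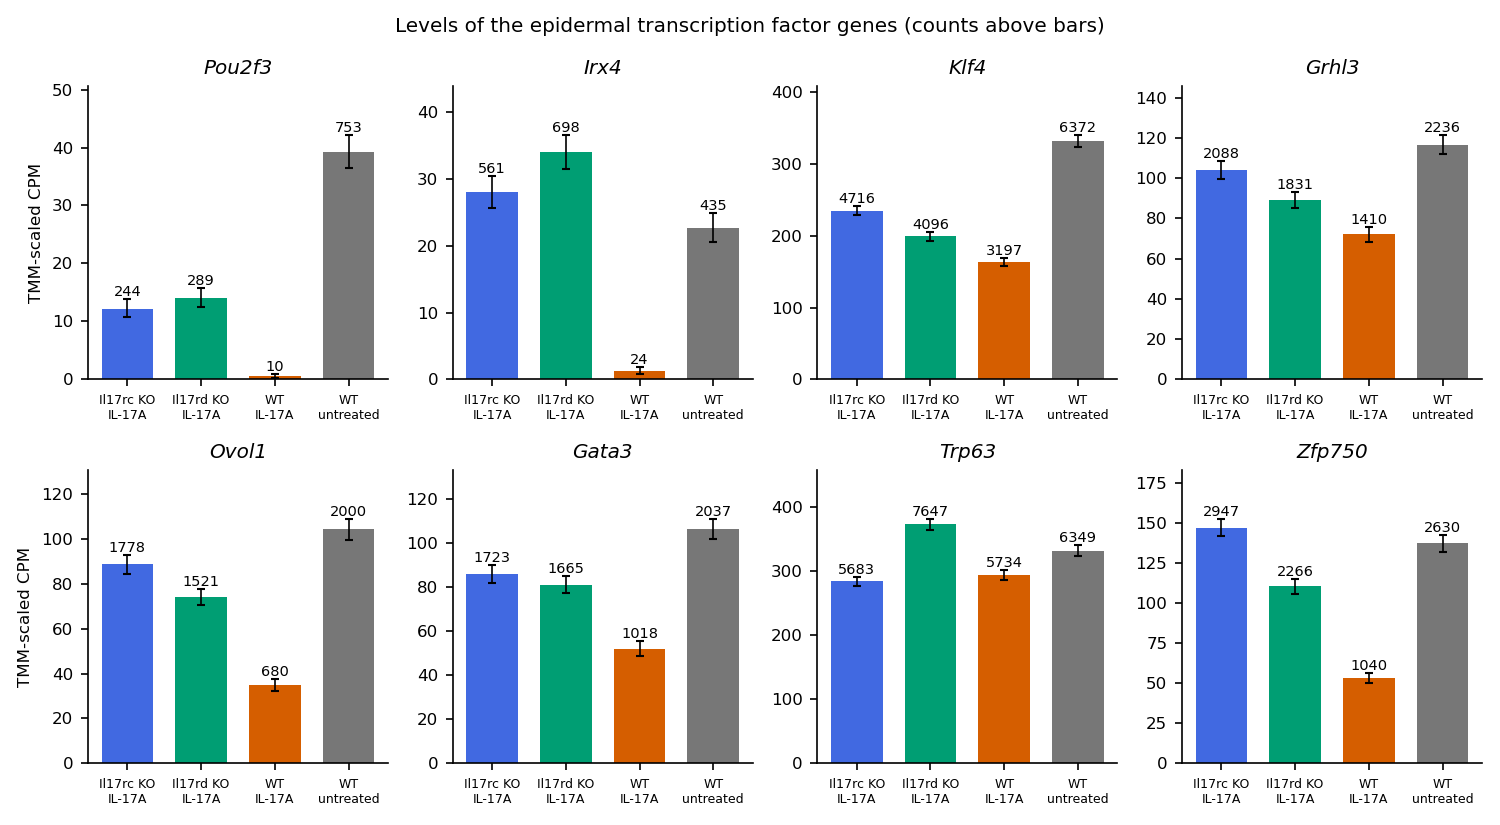
Bars give TMM-scaled CPM of each gene in the 4 libraries (1 per group), error bars the exact 95% Poisson interval of the count, and the numbers above them the raw counts. IL-17A WT holds the lowest bar for every gene except Trp63, for which the Il17rc KO bar is lowest at 283 CPM against 293 CPM in IL-17A WT.

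Trp63 (chromosome 16, 25683763 to 25892102, plus strand, GRCm38) was the member that varied least. It had 283 CPM in IL-17A Il17rc KO, 372 CPM in IL-17A Il17rd KO, 293 CPM in IL-17A WT and 331 CPM in untreated WT. The Il17rd KO library was highest, 1.31-fold (1.27 to 1.36) above the Il17rc KO library, which was lowest, and the step between IL-17A WT and Il17rc KO did not exceed counting error. The gene makes isoforms with and without an N-terminal transactivation domain, from separate promoters, and counts over the whole gene do not separate them.

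Ovol1 (chromosome 19, 5549136 to 5560646, minus strand) encodes a zinc finger repressor that in mouse epidermis restrains the division of committed cells. It had 88.7 CPM in IL-17A Il17rc KO, 74.1 CPM in IL-17A Il17rd KO, 34.7 CPM in IL-17A WT and 104 CPM in untreated WT. All steps between neighbouring levels exceeded counting error, with IL-17A WT far below the others. Ovol1 was 2.55-fold (2.33 to 2.79) higher in Il17rc KO and 2.13-fold (1.95 to 2.34) higher in Il17rd KO than in IL-17A WT, and both knockout libraries stayed below untreated WT, at 85.0% and 71.0% of its level. An annotated pseudogene on the opposite strand, Gm31166, covers 19.8% of the exon bases of Ovol1, and since the strand setting of the counting is not given, part of its reads could come from that gene.

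Gata3 (chromosome 2, 9857078 to 9890034, minus strand), which in skin is needed for barrier lipids and the inner root sheath of the hair, had 85.9 CPM in IL-17A Il17rc KO, 81.1 CPM in IL-17A Il17rd KO, 52.0 CPM in IL-17A WT and 106 CPM in untreated WT. The knockout libraries lay between the others and did not differ from each other beyond counting error, with a ratio of Il17rc KO to Il17rd KO of 1.06 (0.990 to 1.13). They were 1.65-fold (1.53 to 1.79) and 1.56-fold (1.44 to 1.69) above IL-17A WT, in Il17rc KO and Il17rd KO, and neither was called. Gata3 is also the factor of type 2 helper T cells. Of 11 immune and T cell markers only Thy1, Laptm5, Csf1r and Lyz2 were among the genes analysed, and they summed to 5.63, 22.7, 24.6 and 54.2 CPM in IL-17A Il17rc KO, IL-17A Il17rd KO, IL-17A WT and untreated WT. Lyz2 alone made up most of each sum, with 67, 348, 396 and 796 of 113, 467, 481 and 1040 counts in the same libraries. Cd3e, Cd3d, Cd3g, Trdc and Ptprc were not among the genes analysed. The part of T cells or other immune cells in the Gata3 values was not tested.

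Klf4 (chromosome 4, 55527143 to 55532466, minus strand), a zinc finger factor required for the barrier of mouse skin, had 235 CPM in IL-17A Il17rc KO, 199 CPM in IL-17A Il17rd KO, 163 CPM in IL-17A WT and 332 CPM in untreated WT. Each step between neighbouring levels exceeded counting error. Klf4 lay 1.44-fold (1.38 to 1.51) above IL-17A WT in Il17rc KO and 1.22-fold (1.17 to 1.28) above it in Il17rd KO, and neither was called. These levels are 70.8% of untreated WT in Il17rc KO and 60.0% in Il17rd KO. Klf4 and Gata3 stood close to the size called in IL-17A WT against untreated WT, with ratios of 2.03-fold (1.95 to 2.12) and 2.04-fold (1.89 to 2.20) lower, and neither was called when libraries were scaled by their totals alone, which leaves 4 of 8 genes called.

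Grhl3 (chromosome 4, 135541888 to 135573630, minus strand), a grainyhead factor known in mice for barrier formation and for activating the transglutaminase gene Tgm1, had 104 CPM in IL-17A Il17rc KO, 89.1 CPM in IL-17A Il17rd KO, 72.0 CPM in IL-17A WT and 117 CPM in untreated WT. The order of the 4 libraries was the same as for Klf4, over a smaller range, and no comparison of Grhl3 was called. It lay 1.45-fold (1.35 to 1.55) above IL-17A WT in Il17rc KO and 1.24-fold (1.15 to 1.33) above it in Il17rd KO. The largest was IL-17A WT against untreated WT, 1.62-fold lower (1.51 to 1.73). Tgm1 was called lower in that comparison, with 945 counts in IL-17A WT against 2230 in untreated WT, and was called in neither knockout against IL-17A WT, with 1410 counts in Il17rc KO and 1415 in Il17rd KO.

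Zfp750 (chromosome 11, 121510978 to 121519333, minus strand) is the mouse counterpart of human ZNF750, which p63 activates and which in turn raises KLF4 in human keratinocytes. It had 147 CPM in IL-17A Il17rc KO, 110 CPM in IL-17A Il17rd KO, 53.1 CPM in IL-17A WT and 137 CPM in untreated WT. Zfp750 was 2.77-fold (2.58 to 2.97) higher in Il17rc KO and 2.08-fold (1.93 to 2.24) higher in Il17rd KO than in IL-17A WT, and both were called. Il17rc KO was 1.07-fold (1.02 to 1.13) above untreated WT, and Il17rd KO was at 80.4% of it. The ratio of Il17rc KO to Il17rd KO, 1.33-fold (1.26 to 1.41), was the largest among the 8 genes in size, and it lay under the size called. The gene overlaps Tbcd on the opposite strand, but no annotated exon bases are shared.

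Pou2f3 (chromosome 9, 43123939 to 43210369, minus strand) had 244 counts in IL-17A Il17rc KO, 289 in IL-17A Il17rd KO, 10 in IL-17A WT and 753 in untreated WT. In CPM these are 12.2, 14.1, 0.511 and 39.3. The knockout libraries did not differ from each other beyond counting error, with a ratio of Il17rc KO to Il17rd KO of 0.865 (0.726 to 1.03), and they stood far above IL-17A WT and well below untreated WT. Pou2f3 was 23.8-fold (12.7 to 50.3) higher in Il17rc KO and 27.5-fold (14.8 to 58.0) higher in Il17rd KO than in IL-17A WT, with wide intervals from its 10 counts there. At 31.0% (26.7 to 35.8) of the untreated level in Il17rc KO and 35.8% (31.2 to 41.1) in Il17rd KO, Pou2f3 was the only member called in either knockout against untreated WT, where 6.73% of all genes were lower and 7.09% higher in Il17rc KO, and 3.19% lower and 5.12% higher in Il17rd KO. The 10 counts in IL-17A WT leave its share of the untreated level between 0.621% and 2.41%. Of 7 tuft cell markers only Dclk1 was among the genes analysed, at 7.13, 6.43, 7.05 and 5.16 CPM in IL-17A Il17rc KO, IL-17A Il17rd KO, IL-17A WT and untreated WT.

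Irx4 (chromosome 13, 73260479 to 73269608, plus strand) had 561 counts in IL-17A Il17rc KO, 698 in IL-17A Il17rd KO, 24 in IL-17A WT and 435 in untreated WT. In CPM these are 28.0, 34.0, 1.23 and 22.7. Irx4 was 22.8-fold (15.2 to 35.9) higher in Il17rc KO and 27.7-fold (18.5 to 43.5) higher in Il17rd KO than in IL-17A WT. Unlike Pou2f3, it was above untreated WT in both knockout libraries, at 123% (109 to 140) of its level in Il17rc KO and 149.8% (133 to 169) in Il17rd KO, which is under the size called. Each of its steps between neighbouring libraries exceeded counting error.

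Without a minimum size the members divide as follows. Against IL-17A WT, 7 of 8 were higher in Il17rc KO, all but Trp63, where 34.0% of all genes were higher and 26.7% lower. In Il17rd KO 8 of 8 were higher than in IL-17A WT, where 30.2% of all genes were higher and 28.1% lower. Against untreated WT, Irx4 and Zfp750 were higher and 6 of 8 lower in Il17rc KO, where 35.2% of all genes were higher and 35.6% lower. Irx4 and Trp63 were higher and 6 of 8 lower in Il17rd KO against untreated WT, where 30.8% of all genes were higher and 32.4% lower.

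**Figure D2:**
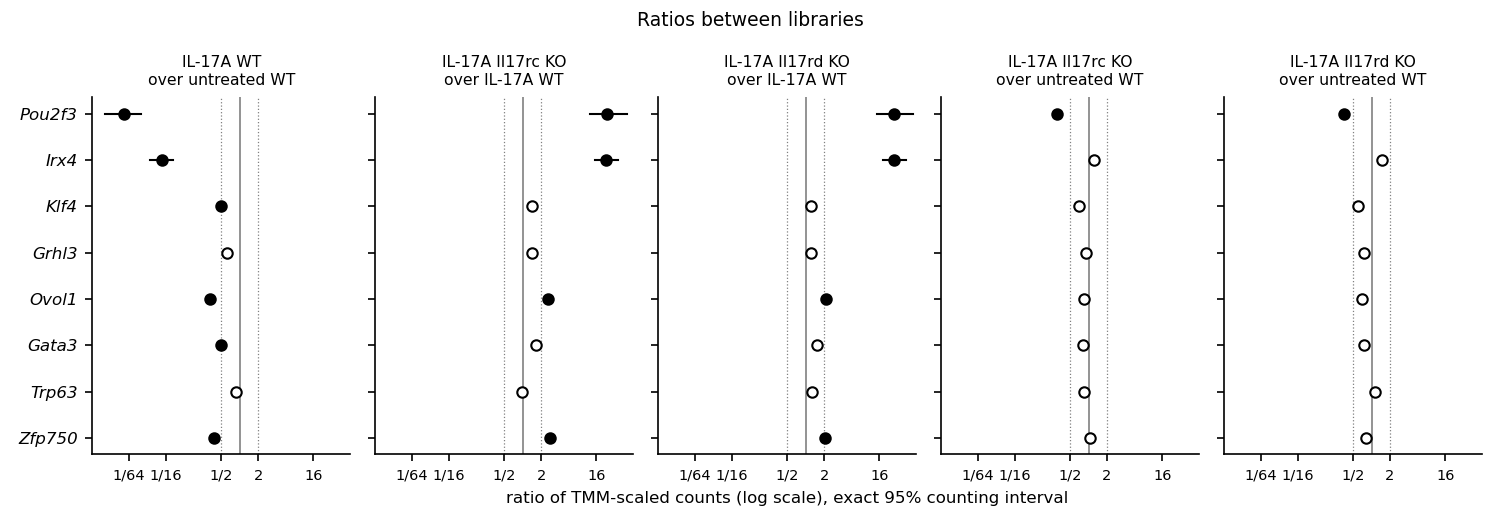
Points give the ratio of TMM-scaled counts between the 2 libraries named above each panel (log axis), and lines the exact 95% counting interval, which is hidden by the point where it is narrow. Filled points are called (2-fold or more, dotted lines, with the interval excluding 1), and Pou2f3 and Irx4 lie far from the other members in the 3 panels that involve IL-17A WT.

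Irx4 shares a cluster on chromosome 13 with Irx1 and Irx2, and Irx3 and Irx5 lie together on chromosome 8. These relatives were picked out after their values were seen. Irx1 had 72.8 CPM in IL-17A Il17rc KO, 55.3 CPM in IL-17A Il17rd KO, 38.1 CPM in IL-17A WT and 84.6 CPM in untreated WT, and was called lower in IL-17A WT against untreated WT. Irx2 lay in the same direction, at a log2 ratio of -0.67 in IL-17A WT against untreated WT, under the size called. Irx3 had 71.4 CPM in IL-17A WT against 42.5 CPM in untreated WT, a log2 ratio of 0.75, and Irx5 was at 0.12, neither of them called. Irx1 and Irx2 thus lay below untreated WT by far less than Irx4, at a log2 ratio of -4.10.

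The DNA before the start site is shown for Irx4, which differed most among the members with an entry in the RefSeq promoter table (GRCm38.p6), and for Klf4, which differed far less between libraries. Grhl3 and Gata3 have entries too, and Pou2f3, Ovol1, Trp63 and Zfp750 are not shown. Capitals mark CACCC (or GGGTG, its other strand), the core of the box that Klf4 and its relatives bind, and CACGTG. The Irx4 stretch is chr13:73260247-73260478 on the plus strand, with 18 bases that GENCODE places in its first exon left out, and the Klf4 stretch is chr4:55532476-55532725 on the minus strand.
Irx4: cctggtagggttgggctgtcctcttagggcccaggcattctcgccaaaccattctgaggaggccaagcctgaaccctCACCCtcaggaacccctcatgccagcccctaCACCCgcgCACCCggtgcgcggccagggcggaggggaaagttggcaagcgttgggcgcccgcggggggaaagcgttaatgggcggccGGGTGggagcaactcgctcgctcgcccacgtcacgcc
Klf4: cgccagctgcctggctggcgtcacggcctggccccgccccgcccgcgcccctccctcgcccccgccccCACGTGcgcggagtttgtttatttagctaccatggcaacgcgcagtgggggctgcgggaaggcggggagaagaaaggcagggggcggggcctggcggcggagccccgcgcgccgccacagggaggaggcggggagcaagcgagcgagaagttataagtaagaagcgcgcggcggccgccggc

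The Irx4 stretch held 4 copies of the CACCC core, the Grhl3 and Gata3 stretches 3 each (a pair of them overlapping in Gata3), and Klf4 none. A copy on either strand is found in 52.0% of all 32851 promoter windows of 250 bases, so its presence is common. Klf4 held the 1 CACGTG, a word present in 6.02% of windows. The 4 stretches held no AP-1 word TGANTCA, which 6.75% of all windows hold. They held no AGATAA, the word of GATA factors, against 9.99% of windows, and no AACNNGTT, that of grainyhead factors, against 3.64%. The octamer ATGCAAAT of POU factors (1.60% of windows) and the C/EBP word TTGCNNAA (9.56%) were absent too. The NF-kB motif was found once, in Gata3, and in 17.6% of all windows. All were searched on both strands, and a match is a stretch of letters, not a shown binding site.

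The levels of different members were compared only per gene length, with the FPKM values deposited by the authors. Klf4 was the most abundant of the 8 transcripts in every library, at 77.0, 65.3, 53.5 and 108.8 FPKM in IL-17A Il17rc KO, IL-17A Il17rd KO, IL-17A WT and untreated WT. Pou2f3 was the least abundant in all IL-17A libraries, at 3.93, 4.55 and 0.165 FPKM in IL-17A Il17rc KO, IL-17A Il17rd KO and IL-17A WT, and Irx4 was the least abundant in untreated WT, at 8.69 FPKM. The sum over the 8 genes was 260 FPKM in IL-17A Il17rc KO, 239 in IL-17A Il17rd KO, 156 in IL-17A WT and 316 in untreated WT.

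Ratios to Trp63 were taken for Klf4, Grhl3 and Zfp750 of the upper layers and for Ovol1. The FPKM ratio of Klf4 to Trp63 was 2.28 in IL-17A Il17rc KO, 1.47 in IL-17A Il17rd KO, 1.53 in IL-17A WT and 2.76 in untreated WT. The ratio of Grhl3 to Trp63 was 1.11, 0.720, 0.740 and 1.06 in the same libraries. In both ratios Il17rd KO was close to IL-17A WT, and Il17rc KO was nearer to untreated WT. No interval was computed for these ratios. Klf4, Grhl3 and Trp63 themselves were 1.22-fold, 1.24-fold and 1.27-fold higher in Il17rd KO than in IL-17A WT. The ratio of Zfp750 to Trp63 was 1.35, 0.769, 0.471 and 1.08 in the 4 libraries, in the same order. That of Ovol1 to Trp63 was 0.905, 0.576, 0.343 and 0.911. Both were lowest in IL-17A WT, with Il17rd KO above it. The FPKM of Ovol1 rests on a length of 2906 bases, where the GENCODE M21 exons cover 3488.

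**Figure D3:**
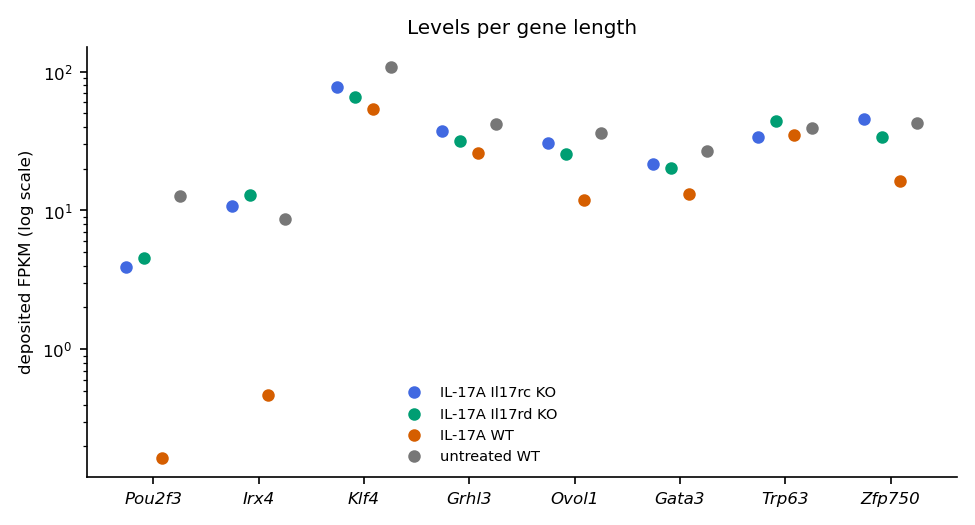
Points give the FPKM deposited by the authors for each gene in the 4 libraries (log axis), which allows levels of different genes to be compared. Klf4 is highest in each library, and the IL-17A WT points of Pou2f3 (0.165 FPKM) and Irx4 (0.469 FPKM) lie far below all others.

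In Il17rc KO against Il17rd KO 0 of 8 members were called. The share of all genes called was 1.41% higher and 2.51% lower, so a count of 0 does not set the members apart. With no minimum size, 6 of 8 members differed: Klf4, Grhl3, Ovol1 and Zfp750 were higher in Il17rc KO, where 28.4% of all genes were higher, and Irx4 and Trp63 were lower, where 23.1% of all genes were lower. The log2 ratios of Il17rc KO to Il17rd KO ran from -0.39 for Trp63 to 0.41 for Zfp750. No member's counting interval reached beyond 1.41-fold in either direction, the upper bound for Zfp750.

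The patterns over the 4 libraries were set side by side as the distance between log2 CPM profiles, each centred on its own mean, and this is a description over 4 points only. Among the members, Ovol1 and Zfp750 were nearest to each other at a distance of 0.24, then Grhl3 and Gata3 at 0.27, with Klf4 at 0.29 from both of these. Pou2f3 and Irx4 were 1.72 apart, and each was at least 2.75 from every other member. The distance is not scaled for the size of the changes, so members that vary by unlike amounts lie apart by construction. Of 11589 named genes, the nearest to Pou2f3 were the Wnt ligand gene Wnt16 (distance 0.42), the spinous keratin gene Krt1 (0.44) and the late cornified envelope gene Lce1c (0.59). The nearest to Irx4 were the peptidase inhibitor gene Pi15 (0.43), which had 2 counts in IL-17A WT, Megf6 (0.64) and the gasdermin gene Gsdmc (0.66). Counts in IL-17A WT were also low for Wnt16 (5), Gsdmc (12) and Lce1c (15), which limits the precision of these distances.

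Much closer neighbours existed for the members that varied less, which the unscaled distance favours by construction. Irf9, a factor of interferon signalling, Eps8l2 and Pcdhb20 lay at 0.06, 0.07 and 0.09 from Klf4. Celsr1, a planar cell polarity gene, Synpo and Ndrg3 lay at 0.05, 0.07 and 0.09 from Gata3. Avpi1, Nog, which encodes a bone morphogenetic protein inhibitor, and Hsbp1l1 lay at 0.10, 0.11 and 0.14 from Ovol1. Hsbp1l1 had 11 counts in IL-17A WT, and Pcdhb20 had 14. The nearest to Zfp750 were Casq2 (0.10), the receptor gene Notch1 (0.12) and the phosphofructokinase gene Pfkp (0.13). Notch1 had 786 CPM in IL-17A Il17rc KO, 665 CPM in IL-17A Il17rd KO, 299 CPM in IL-17A WT and 772 CPM in untreated WT. Parts of a few named transcripts match another annotated gene at an identity of at least 95%, and reads there could belong to either. The longest match takes up 10.2% of the Notch1 transcript, 8.60% of Pou3f1, 42.8% of Etv5 and 56.7% of Fosl1, the last 3 of which are described below.

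Other genes of the same families were read from a list. Of 24 listed relatives 19 were tested, and, beside 10.5% of all genes lower and 8.69% higher, 6 were lower and 1 higher when IL-17A WT was set against untreated WT (median log2 ratio -0.51). The lower genes were Pou3f1, Grhl1, Klf9, Klf5, Irx1 and Trp73. Pou3f1, a POU factor of suprabasal keratinocytes, and Grhl1, a grainyhead factor of desmosome genes, had log2 ratios of -1.89 and -1.65, with 704 and 1208 counts in IL-17A WT against 2567 and 3730 in untreated WT. Ovol2 was the higher one, at 1.66, in the direction opposite to Ovol1, with 120 counts in IL-17A WT against 36 in untreated WT.

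Against IL-17A WT, 4 of 19 relatives were higher in Il17rc KO and 0 lower (median log2 ratio 0.51), and 5 were higher in Il17rd KO and 0 lower (median 0.36). The shares of all genes higher in these comparisons are 6.02% and 6.04%. Pou3f1, Grhl1, Klf5 and Klf9 were higher in both, and Trp73 in Il17rd KO, at 1.24, against 0.59 in Il17rc KO. Between the knockouts 0 of 19 were called, near the background of 1.41% higher and 2.51% lower. Grhl2, the relative of Grhl3 that acts in many epithelia, was called in no comparison, with 1869, 1821, 1693 and 1792 counts in IL-17A Il17rc KO, IL-17A Il17rd KO, IL-17A WT and untreated WT.

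Factors of other families with a known place in the epidermis were read too, and 37 were tested. IL-17A WT had 13 lower and 4 higher against untreated WT (median log2 ratio -0.71). Of all genes 10.5% were lower, and the 4 higher are near the share of all genes, 8.69%. Id1, an inhibitor of helix-loop-helix factors, and the homeobox gene Barx2 were at -3.47 and -2.68. The ETS factor genes Etv5 and Etv4, which follow growth factor signals, were at 5.24 and 4.55, and the other higher genes were Fosl1 and Tead1. Against IL-17A WT, 7 were higher in Il17rc KO and 2 lower (median 0.37), and 10 were higher in Il17rd KO and 4 lower (median 0.50). Of all genes 6.02% were higher and 4.68% lower in Il17rc KO, so the 2 lower are near that share. In Il17rd KO 6.04% of all genes were higher and 3.60% lower. Barx2 was at 3.13 in Il17rc KO and 2.73 in Il17rd KO, and Etv4 at -2.06 in Il17rc KO and -3.06 in Il17rd KO.

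Genes that p63 is known to control or act beside were read from a further list. Of 22 genes, 5 were lower and 2 higher when IL-17A WT was set against untreated WT (median log2 ratio -0.54). The shares of all genes are 10.5% lower and 8.69% higher, so the 2 higher are near that share. Fras1, a basement membrane protein gene, and the growth factor receptor genes Fgfr3 and Fgfr2 were at -4.40, -4.34 and -2.13, and Fermt1, which activates integrins, was at 1.75. Krt5 and Krt14, the basal keratins, were called in no comparison. Fgfr2, Fgfr3 and Fras1 were higher, and Fermt1 and Itga3 lower, in each knockout against IL-17A WT, which is 3 of 22 higher and 2 lower. Of all genes 6.02% were higher and 4.68% lower in Il17rc KO, and 6.04% higher and 3.60% lower in Il17rd KO. The median over the list was 0.09 in Il17rc KO and 0.16 in Il17rd KO, beside 0.04 and 0.01 for all genes. Fras1 also differed between the knockouts, at -1.38 in Il17rc KO against Il17rd KO. It was the 1 gene of the list called there, beside 2.51% of all genes lower.

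Chromatin proteins that p63, Zfp750 and their human counterparts work with had 0 of 12 genes called in each of the 6 comparisons. The shares of all genes called ran from 1.41% higher and 2.51% lower between the knockouts to 8.69% higher and 10.5% lower in IL-17A WT against untreated WT, so in a list of this size 0 is near the background in the first of these. The list includes Kdm1a, Rcor1, Ctbp1 and Ctbp2, which bind ZNF750 in human keratinocytes, and its median log2 ratio in IL-17A WT against untreated WT was -0.06. Ctbp2 was furthest, at 0.91 in that comparison, with 1739 counts in IL-17A WT against 907 in untreated WT.

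The products of the differentiated layers were read from a last list. Several of the 8 factors are known to activate such genes, and whether they did so here was not tested. Of 20 genes, IL-17A WT had 19 lower and 0 higher against untreated WT (median log2 ratio -2.81). The shares of all genes there were 10.5% lower and 8.69% higher. Krt1 (-6.03), Krt10 (-5.74), Flg2 (-5.45) and Calml3 (-4.12) were close in size to Pou2f3 (-6.01) and Irx4 (-4.10). Ivl, the involucrin gene, was the 1 not called, with 552 counts in IL-17A WT against 567 in untreated WT. Against IL-17A WT, 15 were higher in Il17rc KO and 0 lower (median 1.84), and 16 were higher in Il17rd KO and 0 lower (median 1.80). Of all genes 6.02% were higher and 4.68% lower in Il17rc KO, and 6.04% higher and 3.60% lower in Il17rd KO. Against untreated WT 8 of 20 were lower in each knockout, with medians of -0.76 in Il17rc KO and -0.77 in Il17rd KO. The shares of all genes lower in these comparisons are 6.73% in Il17rc KO and 3.19% in Il17rd KO.

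**Figure D4:**
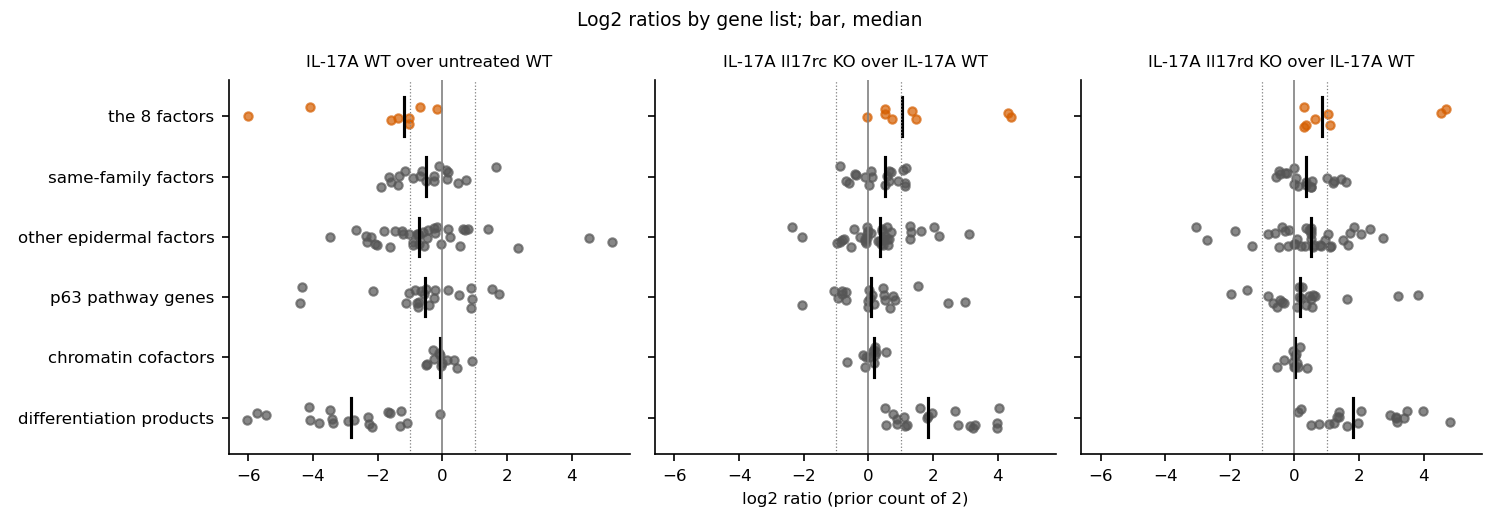
Each point is the log2 ratio of 1 gene (prior count of 2) in the comparison above the panel, grouped by gene list, with the median as a bar and dotted lines at the size called. The 8 factors have medians of -1.20, 1.04 and 0.85, the chromatin cofactors lie around 0, and the differentiation products have medians of -2.81, 1.84 and 1.80.

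Markers of other cells also differed between the libraries, and their part in these results was not tested. The 8 melanocyte markers summed to 2071 CPM in IL-17A Il17rc KO, 2226 in IL-17A Il17rd KO, 1602 in IL-17A WT and 2459 in untreated WT. Of 10 fibroblast markers 7 were counted, with sums of 76.0, 118, 71.2 and 86.0 CPM in the same libraries. Fbln1 made up most of each sum, with 1100, 1760, 1253 and 852 of 1524, 2419, 1394 and 1648 counts. Its count was lowest in untreated WT. The collagen gene Col1a1 had 128, 233, 27 and 247 counts. Unlike Fbln1, it was lowest in IL-17A WT, as were Col1a2, Col3a1, Pdgfra, Pdgfrb and Twist2. Of 15 hair follicle markers 6 were counted, at 535, 415, 437 and 545 CPM, mostly from Sox9, and the inner root sheath keratins Krt71, Krt25, Krt27 and Krt28 were not among the genes analysed. Of 6 Merkel cell markers Krt8, Krt18 and Krt20 were counted, at 13.0, 19.5, 159 and 10.9 CPM, without Atoh1, Sox2 or Isl1. Krt8 had 164, 283, 2146 and 123 counts and Krt18 had 88, 109, 947 and 60. Krt20 did not share their high value in IL-17A WT, with 9, 9, 20 and 26 counts. Mgst1 and Scd3 of the 6 sebocyte markers summed to 10.5, 25.5, 11.1 and 37.6 CPM, and Pecam1 and Kdr of the 5 endothelial markers to 7.88, 10.5, 17.6 and 10.4 CPM.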

How the data were processed

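Each library has a table of gene symbols with a count and an FPKM value. The deposited counts are whole numbers without normalization. The submitters' processing notes name Trim Galore 0.4.4, HISAT2, featureCounts (Subread) and edgeR, with build mm10, while settings and strand are not given in those notes. FPKM, as deposited, follows the counts per gene, over library sizes proportional to those computed here. Every deposited gene exceeds 1 CPM in at least 2 libraries.

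Library sizes were multiplied by TMM factors (edgeR 4.0.16), from 0.963 to 1.04. Ratios carry exact 95% conditional binomial (Clopper-Pearson) intervals and levels exact Poisson intervals (SciPy 1.17.1). These cover counting error only, since each group has 1 library. Reads that carry no molecular identifier need not be separate molecules, so the intervals may understate even that error. The call rule, applied where the mean reached 1 CPM, was run on simulated data with counting error alone and planted changes of 4-fold or more. That run cannot show how often the rule errs between real cultures or near 2-fold. Alternatives were DESeq2 1.42.0 size factors, library totals, other fold sizes and filters and a prior count of 0.5. The FPKM ratios were read as well, though they follow the same scaled counts and are no separate check. Named are all 8 members, for each list up to 4 genes ranked by the size of the log2 ratio, and the 3 nearest genes in pattern for members that vary 2-fold or more. Grhl2, Ivl, Tgm1, Krt5, Krt14, the remaining called members of lists, the Iroquois genes and markers of other cells were named with their values seen. The members and lists were chosen with earlier results of these data known. Coordinates and overlaps come from GENCODE M21 (GRCm38), and copies of members and named list genes were sought with BLAST+ 2.17.0, which found no near-identical transcript of a member except where an overlapping gene shares its bases. There were 17 symbols turned into dates, and they were not named. A listed gene that the rule selects is not reported here.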

Additional observations from a re-analysis of the deposited data

How the results depend on the processing

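Of the 48 log2 ratios of members, none changed sign where called, under another prior count, DESeq2 size factors or library totals, and 10 moved beyond their counting interval under library totals. Library totals shift the median log2 ratio of all genes in IL-17A Il17rd KO against untreated WT to 0.11. At 4-fold the members called were 2 in IL-17A WT against untreated WT and 2 in each knockout against IL-17A WT (Pou2f3 and Irx4 each time), and 0 in each knockout against untreated WT. At 1.5-fold Grhl3 was also called lower in IL-17A WT against untreated WT, for 7 members. Gata3 was also called higher in each knockout against IL-17A WT, for 5 members in each. Klf4 joined Pou2f3 in IL-17A Il17rd KO against untreated WT, for 2 members. DESeq2 size factors left the number of members called as it was in all 6 comparisons. The FPKM ratios did too, but FPKM rests on library sizes proportional to those used here. They repeat the main ratios and are no separate check. At a mean of at least 10 CPM the genes called were 1387 in IL-17A WT against untreated WT, 736 and 636 in Il17rc KO and Il17rd KO against IL-17A WT, 191 in Il17rc KO against Il17rd KO, and 939 and 517 in Il17rc KO and Il17rd KO against untreated WT, since fewer genes are tested. At 1.5-fold they were 4726, 2816, 2617, 1549, 4060 and 2759 in the same comparisons, against 2478, 1383, 1247, 508, 1788 and 1074 at 2-fold. Counts of 10 and 24 for Pou2f3 and Irx4 in IL-17A WT limit the precision of their ratios. No paired analysis was possible because each group has 1 library, and no library could be left out for the same reason.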
